A study of Mus musculus with 8 samples.

Results

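The MHC class II pathway was followed in pancreatic islets through 10 genes, the class II chains H2-Aa, H2-Ab1 and H2-Eb1, the invariant chain Cd74, the coactivator Ciita, the peptide editors H2-DMa and H2-DMb1, their inhibitors H2-Oa and H2-Ob, and the protease Ctss. Members were every probe set whose platform annotation of 2016 gave exactly 1 of these symbols, which held for 17 of 45101 probe sets. They covered 9 of the 10 genes. H2-DMb1 appeared only on probe sets annotated jointly with H2-DMb2 and has no value here. Where a gene had several probe sets, the one with the highest mean over the arrays is called its leading probe set.

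Islets were laser-captured from NOD.Scid mice, which form no mature T or B cells of their own, and the RNA of 5 mice was pooled for each of 8 Affymetrix arrays. In the protected arm (4 arrays, days 3, 4, 5 and 8) mice received BDC2.5 transgenic T cells on day 0 and an antibody against interferon-γ (anti-Ifng) on day -1 and on day 2. In the diabetogenic arm (3 arrays, days 3, 4 and 8) mice received the same cells without the antibody, and 1 array held islets of untreated NOD.Scid mice (day 0). There was 1 array for each arm and day and no arm with a control antibody, so any effect of injecting an antibody as such cannot be told apart from neutralising interferon-γ. Ages were not given in the sources used here.

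Class II molecules are pairs of an α and a β chain that present peptides from endosomes to CD4 T cells; H2-Aa and H2-Ab1 encode the chains of I-A, and H2-Eb1 encodes the β chain of I-E. Cd74 blocks the groove of newly made pairs, cathepsin S (Ctss) trims it, H2-DM exchanges its last fragment for peptide, and H2-O restrains H2-DM. Ciita is the coactivator that switches on class II genes through the X and Y boxes of their promoters, and interferon-γ is its classical inducer in cells that do not make class II constitutively. Macrophages, dendritic cells and B cells are the usual class II-bearing cells, so the question asked of the antibody-treated islets was whether these transcripts were still high when interferon-γ was neutralised.

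The promoters of 5 members are printed because the X and Y boxes are the part of the gene through which Ciita acts, and because Ctss, which lacked the pair, shows the contrast. Windows run from 250 bases before to 50 bases after the gene start, 5′ to 3′ along the gene, with sequences and positions from RefSeq (GRCm38.p6). They are reference assembly sequences and were not read from the NOD.Scid mice used here. Capitals mark the X box core GNAAC and the Y box core TGATTGG in the class II promoters and an interferon response element core, GAAANNGAA, in Ctss.
H2-Aa, chr17:34287774-34288073, minus strand: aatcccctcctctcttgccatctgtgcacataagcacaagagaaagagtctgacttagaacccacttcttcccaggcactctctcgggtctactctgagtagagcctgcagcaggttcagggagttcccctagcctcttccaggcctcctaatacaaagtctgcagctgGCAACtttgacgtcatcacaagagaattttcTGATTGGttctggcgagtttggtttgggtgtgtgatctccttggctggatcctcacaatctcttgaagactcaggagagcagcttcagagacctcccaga
H2-Eb1, chr17:34305617-34305916, plus strand: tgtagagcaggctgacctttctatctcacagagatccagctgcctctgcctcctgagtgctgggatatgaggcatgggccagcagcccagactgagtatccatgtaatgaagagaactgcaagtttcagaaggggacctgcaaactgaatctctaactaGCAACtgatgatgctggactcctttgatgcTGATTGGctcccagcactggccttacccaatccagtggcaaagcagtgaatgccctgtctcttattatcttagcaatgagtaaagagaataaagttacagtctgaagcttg
H2-Oa, chr17:34092129-34092428, plus strand: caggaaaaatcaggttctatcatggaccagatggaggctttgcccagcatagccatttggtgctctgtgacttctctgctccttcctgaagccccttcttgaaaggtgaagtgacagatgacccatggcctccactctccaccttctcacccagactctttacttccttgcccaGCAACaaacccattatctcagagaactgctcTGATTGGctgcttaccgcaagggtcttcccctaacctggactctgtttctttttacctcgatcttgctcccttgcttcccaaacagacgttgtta
H2-Ob, chr17:34238655-34238954, plus strand: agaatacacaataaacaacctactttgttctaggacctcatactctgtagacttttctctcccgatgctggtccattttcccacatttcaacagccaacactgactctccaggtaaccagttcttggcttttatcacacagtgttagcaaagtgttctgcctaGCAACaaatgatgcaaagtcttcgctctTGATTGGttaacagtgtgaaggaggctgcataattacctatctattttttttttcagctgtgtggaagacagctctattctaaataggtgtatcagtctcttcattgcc
Ctss, chr3:95526536-95526835, plus strand: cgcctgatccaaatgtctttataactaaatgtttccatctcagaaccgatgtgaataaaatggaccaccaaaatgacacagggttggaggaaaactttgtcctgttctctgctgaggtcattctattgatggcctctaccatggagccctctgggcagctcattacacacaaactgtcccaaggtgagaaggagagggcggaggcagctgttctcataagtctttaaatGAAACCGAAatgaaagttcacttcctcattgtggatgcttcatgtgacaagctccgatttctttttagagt

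A window was found for 7 of the 10 genes, 8 windows in all because H2-DMa has 2. Both H2-DMa windows lie inside the gene, beginning at 34122582 and 34125268, while the gene begins at 34119693. The sequence before the H2-DMa gene start was therefore not searched, and whether it holds the boxes was not tested. The Y box core, sought on both strands, occurred in 7.82% of 32851 promoters of the same length, and an X core 15 to 45 bases before it on the same strand occurred in 0.852%. That pair lay in the windows of H2-Aa, H2-Eb1, H2-Oa, H2-Ob and H2-DMb1, with 23 to 26 bases between the boxes, and in neither H2-DMa window nor that of Ctss. The interferon response element core occurred in 8.56% of promoters, and the interferon-γ-activated element TTCNNNGAA, in 8.3% of promoters, was in none of the member windows. The motif spellings and the spacing were chosen after the windows had been seen. A match is a run of letters and not a shown binding site.

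Intensities are the deposited linear values, whose array medians lay between 3.14 and 3.96. Differences are given on the log2 scale of intensity plus 2.155, which understates the change of dim probe sets. The limma tests covered all 28847 probe sets with 1 symbol that reached their array's median on at least 2 of 8 arrays. All 17 members passed that filter. Calls were made at a Benjamini-Hochberg adjusted p under 0.05.

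Technical features ran alongside the groups. The share of probe sets at 8 times the array median or brighter was 0.900% on the diabetogenic day 4 array, against 2.06 to 5.35% on the other arrays. The median of 18 spike control probe sets was 1.48 to 2.29 on the untreated and both day 3 arrays and 551 to 1712 on all later arrays. Later days therefore differ from the untreated array in this handling as well as in time, and both cannot be told apart. The ratio of 3′ to 5′ signal of Actb, a sign of RNA quality, was 5.01 to 24.2 on the protected arrays, 5.54, 2.25 and 13.8 on diabetogenic days 3, 4 and 8 and 1.86 on the untreated array. That of Gapdh was likewise lowest on diabetogenic day 4 (2.78) and untreated (5.14). These are also the arrays on which the leading sets of the class II chains were lowest, and the part of RNA quality in those values was not tested. Among 6 beta cell markers tested, insulin 2 transcript (Ins2) was bright on every array, 3779 to 6359 on the protected, 3409 to 4471 on the diabetogenic and 4277 on the untreated array. The others did not move alike. Slc2a2, the glucose transporter, had the largest estimated fall from untreated in both arms. It read 5.37 to 75.8 on the protected arrays, 1.76 to 73.7 on the diabetogenic arrays and 161 untreated. Iapp read 851 to 1143 on the protected arrays, 99.7 to 769 on the diabetogenic arrays and 505 untreated. Of the 6 differences from untreated, 2 were positive in the protected arm and 0 in the diabetogenic arm. The list's median difference from untreated was -1.41 in the protected and -1.86 in the diabetogenic arm.

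H2-Aa encodes the I-A α chain. Its leading probe set (1435290_x_at) read 519, 1053, 2219.8 and 2792 on protected days 3, 4, 5 and 8, against 413, 160.1 and 2533 on diabetogenic days 3, 4 and 8 and 93.7 in untreated islets. All 7 injected arrays stood above the untreated one, and the lowest of them was diabetogenic day 4. A second probe set (1438858_x_at) read 300.4, 1319, 1713 and 2503 on the protected arrays, against 278, 502 and 2249 on the diabetogenic arrays and 72.6 untreated. It kept the same order on both arms, with day 3 lowest and day 8 highest.

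The dimmer H2-Aa probe sets split. Probe set 1452431_s_at read 57.5, 25.5, 80.8 and 84.8 on the protected arrays, against 56.7, 3.24 and 90.7 on the diabetogenic arrays and 3.88 untreated. Here diabetogenic day 4 lay below untreated. Probe set 1443783_x_at read 11.0, 2.39, 14.5 and 15.4 on the protected arrays, against 8.30, 4.90 and 2.15 on the diabetogenic arrays and 2.25 untreated, so diabetogenic day 8 was at the untreated level where the brighter sets were highest. Correlations with the leading profile over the 8 arrays were 0.91, 0.87 and 0.37 for 1438858_x_at, 1452431_s_at and 1443783_x_at. The suffixes x and s mark probes that can also match related sequences, and class II loci are close relatives, so cross-hybridisation was not tested.

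The I-A β chain gene H2-Ab1 followed on its leading probe set (1450648_s_at), which read 56.55, 21.3, 69.2 and 56.5 on protected days 3, 4, 5 and 8, against 52.5, 4.79 and 104 on the diabetogenic arrays and 4.76 untreated. Diabetogenic day 4 was at the untreated value and the other injected arrays stood far above it. Probe set 1451721_a_at ran the other way, with 32.9, 11.3, 21.8 and 13.9 on the protected arrays, 36.4, 10.9 and 5.62 on the diabetogenic arrays and 42.8 untreated. Its correlation with the leading set was -0.20, so the H2-Ab1 probe sets disagree in direction. The third, 1425477_x_at, was near background throughout, with 4.15 to 5.23 on the protected arrays, 2.00 to 7.12 on the diabetogenic arrays and 2.14 untreated.

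H2-Eb1, the I-E β chain gene, read 18.0, 10.2, 29.1 and 25.01 on the protected arrays, against 20.3, 4.81 and 26.5 on the diabetogenic arrays and 2.59 untreated. Every injected array was above untreated. NOD mice make no I-E molecule because the α chain gene H2-Ea is not expressed, and H2-Ea read 1.54 to 3.82 on the protected arrays, 4.18 to 9.66 on the diabetogenic arrays and 2.13 untreated.

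**Figure D1:**
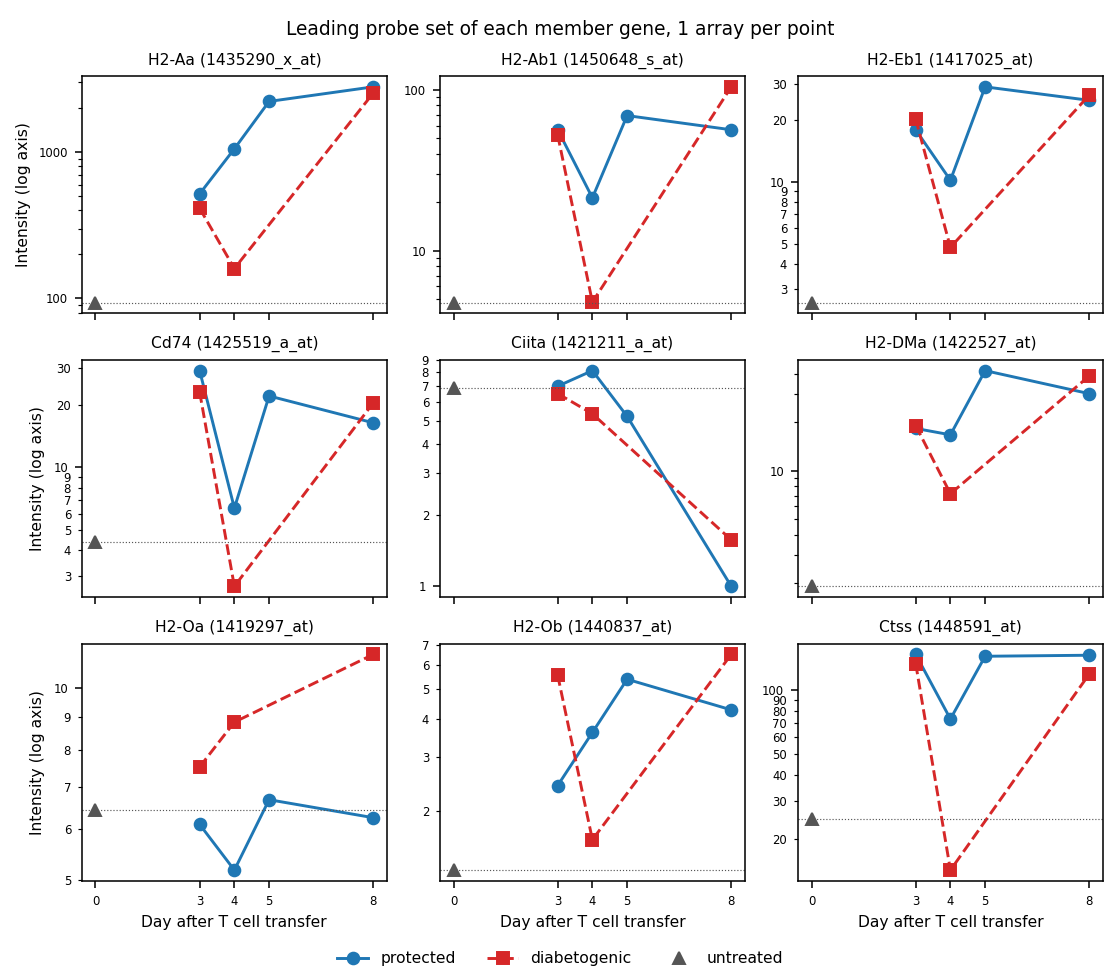
Intensity (log axis) of each gene's leading probe set by day after T cell transfer, with 1 array per point for protected (circles), diabetogenic (squares) and untreated (triangle, day 0) islets. H2-Aa, H2-Ab1, H2-Eb1 and H2-DMa lie above the untreated line in both arms on days 3 and 8, diabetogenic day 4 is the lowest injected array for each, and H2-Oa stays between 5.18 and 11.3 throughout.

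Cd74, the invariant chain, read 29.1, 6.38, 22.0 and 16.4 on the protected arrays, against 23.0, 2.69 and 20.4 on the diabetogenic arrays and 4.38 untreated. The day 4 arrays were the lowest of both arms, and diabetogenic day 4 lay under untreated. Cathepsin S (Ctss) read 147, 73.1, 144 and 146 on the protected arrays, against 133, 14.3 and 119 on the diabetogenic arrays and 24.8 untreated. Both arms again had their lowest array on day 4.

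The peptide editor subunit H2-DMa read 18.3, 16.7, 41.9 and 30.1 on the protected arrays, against 19.1, 7.19 and 38.8 on the diabetogenic arrays and 1.91 untreated. All 7 injected arrays stood above untreated. Its second probe set (1459872_x_at) read 6.28, 9.07, 23.0 and 19.6 on the protected arrays, against 6.79, 1.07 and 8.08 on the diabetogenic arrays and 1.83 untreated, with diabetogenic day 4 below untreated.

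The H2-O inhibitor genes were dim. H2-Oa read 6.11, 5.18, 6.68 and 6.26 on the protected arrays, against 7.52, 8.84 and 11.3 on the diabetogenic arrays and 6.44 untreated. The protected values lay wholly below the diabetogenic ones, and 4.22% of all probe sets did not overlap in either direction. H2-Ob read 2.42, 3.61, 5.39 and 4.28 on the protected arrays, against 5.56, 1.61 and 6.5 on the diabetogenic arrays and 1.28 untreated, all near the array medians.

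Ciita was dim, with no reading above 10.98 on any probe set. Its leading probe set (1421211_a_at) read 6.98, 8.12, 5.21 and 1 on the protected arrays, against 6.5, 5.34 and 1.57 on the diabetogenic arrays and 6.86 untreated. It was lowest on day 8 of both arms. Probe set 1421210_at read 3.49, 2.53, 11.0 and 7.70 on the protected arrays, against 3.44, 3.44 and 4.82 on the diabetogenic arrays and 1 untreated. It was the only Ciita probe set above untreated on every injected array. Its untreated reading of 1 was the lowest of any member and recurred on other Ciita sets. Standing above such a bottom reading therefore says little about a rise. Probe set 1447075_at read 4.45, 1.69, 3.69 and 1.04 on the protected arrays, against 6.59, 4.24 and 1 on the diabetogenic arrays and 6.64 untreated. Probe set 1421210_at had a correlation of -0.54 with the leading set over the 8 arrays, so no single direction can be read for Ciita.

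Set against untreated islets, the protected arm was higher on average for the chains and for H2-DMa, but no member passed the test. For the leading probe sets the fit estimated a log2 difference of 3.83 ± 1.25 for H2-Aa, 14.2-fold (SE, 4 protected arrays against 1 untreated). For H2-Ab1 the leading set stood at 2.83 ± 1.32, 7.09-fold, but 1451721_a_at at -1.13 ± 1.04 and 1425477_x_at at 0.68 ± 0.53. The fit gave 2.74 ± 0.997 for H2-DMa, 6.69-fold, 2.18 ± 0.95 for H2-Eb1, 4.52-fold, and -0.40 ± 0.66 for Ciita. For Ctss it gave 2.21 ± 1.35 and for Cd74 1.51 ± 0.99, whose 95% interval, -0.57 to 3.58, includes 0. Every adjusted p was 0.9998. By limma 1 of 28847 probe sets was called (0.00347%), none of the 17 members, and 642 probe sets with 8 members reached an unadjusted p under 0.05. The members' median difference was 1.51, beside -0.02 over all probe sets tested, and 13 of 17 were positive, beside 48.3% of all. With 1 untreated array, the fit takes its spread from the differences between days in the injected arms.

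The diabetogenic arm gave H2-Aa 2.53 ± 1.29, H2-Ab1 2.31 ± 1.37, H2-DMa 2.31 ± 1.03 and H2-Eb1 1.80 ± 0.98 over untreated (log2, SE, 3 arrays against 1). Ctss stood at 1.26 ± 1.39, Cd74 at 1.10 ± 1.02 and Ciita at -0.53 ± 0.68. These are leading sets, and the other H2-Ab1 sets stood at -1.51 ± 1.07 (1451721_a_at) and 0.56 ± 0.55 (1425477_x_at). limma called 0 of 28847 probe sets (0%), with 779 at an unadjusted p under 0.05, 2 of them members, and the members' adjusted p was 0.9446 to 0.9592. The members' median was 0.93, beside -0.04 over all. Both arms share the untreated array, so their differences from it are not independent of each other.

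**Figure D2:**
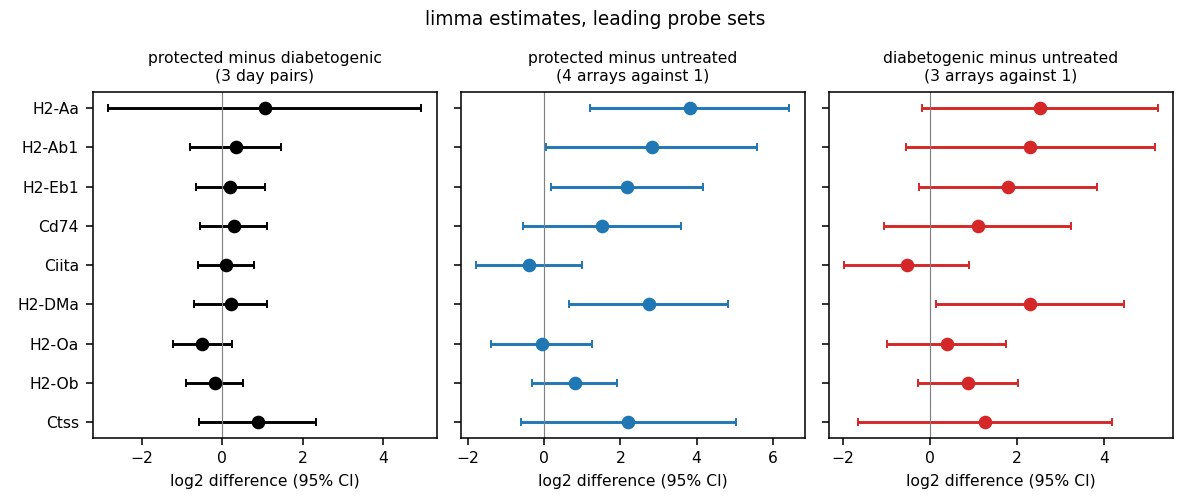
Estimated log2 difference with 95% confidence interval for the leading probe set of each gene, protected minus diabetogenic (left), protected minus untreated (middle) and diabetogenic minus untreated (right). The intervals of protected minus diabetogenic all include 0, and H2-Aa has the widest of them, -2.84 to 4.95.

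Counted array by array with no test, at least 2-fold over untreated was reached on the protected arrays by 10, 8, 12 and 11 of the 17 member probe sets on days 3, 4, 5 and 8, beside 1.84%, 9.11%, 8.69% and 8.3% of all tested probe sets. On the diabetogenic arrays 11, 2 and 12 members reached it on days 3, 4 and 8, beside 2.58%, 9.74% and 14.4%. At least 2-fold below untreated were 0, 2, 0 and 3 members on the protected arrays, beside 1.17%, 17.1%, 8.76% and 13% of all, and 0, 1 and 3 on the diabetogenic arrays, beside 1.29%, 21.3% and 19%. Those lower readings came from H2-Ab1 1451721_a_at and from Ciita 1421211_a_at and 1447075_at. The day 3 arrays share the low spike control signal of the untreated array and give the comparison in which that feature does not differ. There H2-Aa stood 2.44 above untreated on the protected array and 2.12 above on the diabetogenic array (log2), H2-Ab1 3.09 and 2.98, and H2-DMa 2.33 and 2.38. The protected minus diabetogenic difference on day 3 was 0.33 for H2-Aa, 0.10 for H2-Ab1 and -0.05 for H2-DMa, and 1 array per arm allows no test of it.

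All 4 protected arrays stood above untreated for 13 of 17 member probe sets, beside 16.9% of all probe sets, and all 3 diabetogenic arrays for 8, beside 19.1%. All 7 injected arrays did so for 7 (8.94% of all), and without the diabetogenic day 4 array, an alternative added after seeing the data, for 12 (11% of all). All 7 lay below untreated for 2, H2-Ab1 1451721_a_at and Ciita 1447075_at, beside 14.7% of all.

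**Figure D3:**
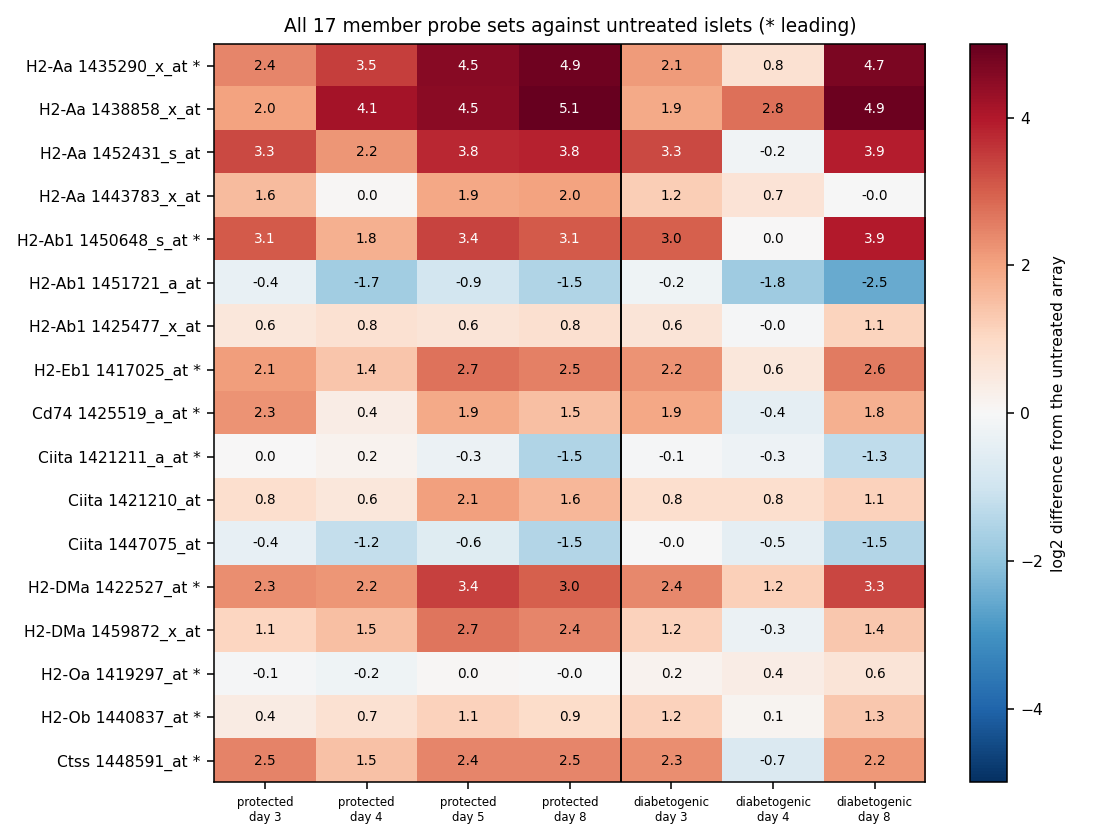
Log2 difference of each of the 17 member probe sets from the untreated array, on the 4 protected arrays (left of the line) and the 3 diabetogenic arrays (right). Most cells are positive, the diabetogenic day 4 column is pale, and H2-Ab1 1451721_a_at and Ciita 1447075_at run negative.

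Directly between the arms, over the 3 matched days with day as a block, no member passed the test. The difference was 1.06 ± 1.90 for H2-Aa (log2, SE), 0.33 ± 0.55 for H2-Ab1, 0.20 ± 0.42 for H2-Eb1, 0.28 ± 0.40 for Cd74 and 0.21 ± 0.44 for H2-DMa. Ctss stood at 0.88 ± 0.71, Ciita at 0.10 ± 0.34, H2-Ob at -0.19 ± 0.35 and H2-Oa at -0.50 ± 0.36 with an adjusted p of 0.736. limma called 12 of 28847 probe sets (0.0416%), none a member, and 2291 with 1 member, H2-DMa 1459872_x_at at 0.93 ± 0.38, reached an unadjusted p under 0.05. Its adjusted p was 0.605. The larger estimates rested on day 4 and on the scaling: without the day 4 pair H2-Aa stood at 0.23 and Ctss at 0.21, and under quantile normalization H2-Aa stood at 0.10. The 95% interval ran from -2.84 to 4.95 for H2-Aa, which leaves room for more than 2-fold either way, from -0.66 to 1.05 for H2-Eb1 and from -0.71 to 1.12 for H2-DMa. A missing call does not show that the arms were alike. For 1 of 17 members, H2-Oa, the protected and diabetogenic arrays did not overlap (4.22% of all).

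By day, on the deposited scale, the members' median arm difference was largest on day 4. At least 2-fold higher in the protected array were 0 members on day 3 (0.458% of all), 7 on day 4 (11.4%) and 3 on day 8 (11.7%). At least 2-fold lower were 0 on each day, beside 1.35%, 6.18% and 10.3% of all. The median over the 17 probe sets came to 0.01 for day 3, 0.82 for day 4 and -0.08 for day 8. Day 4 set the protected array against the dim diabetogenic array. Under cyclic loess normalization the day 4 median was 0.12 and the day 8 median -0.30, with H2-Ab1 at -1.41, H2-DMa at -0.94 and Cd74 at -0.82 on day 8, so the larger median was then on day 8 with the opposite sign, and the estimates of H2-Aa, H2-Ab1, H2-Eb1, Cd74 and H2-DMa over matched days turned negative. How much of the day 4 difference belongs to that array was not tested.

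**Figure D4:**
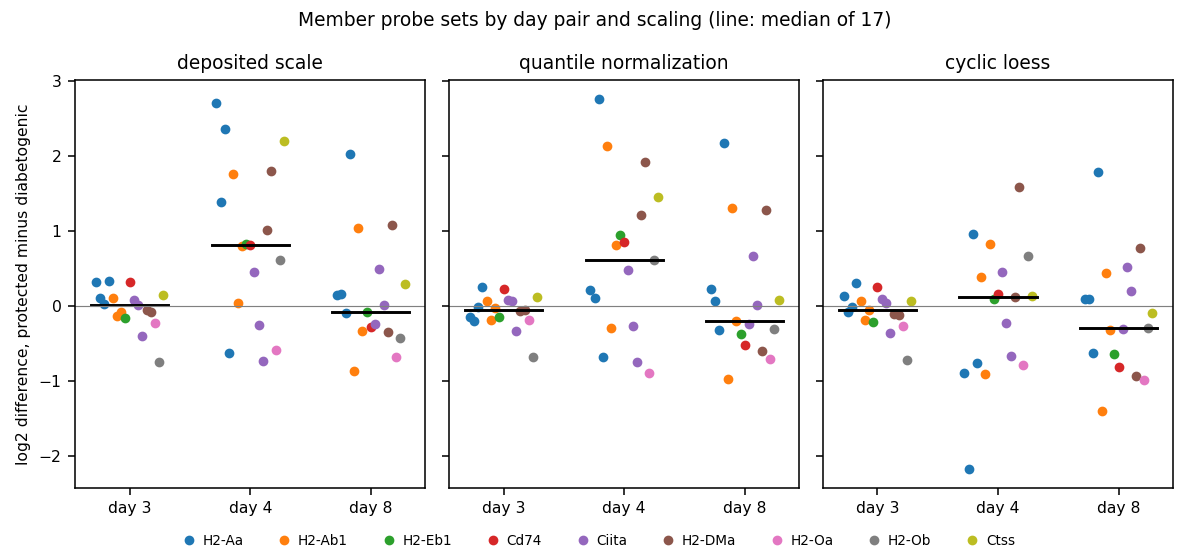
Log2 difference, protected minus diabetogenic, of each member probe set on days 3, 4 and 8 under the deposited scale, quantile normalization and cyclic loess, with a line at the median of 17. The day 4 median is 0.82 on the deposited scale and 0.12 under cyclic loess.

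Between day 3 and day 8, over both arms in 1 fit, H2-Aa stood at 0.55 ± 0.17 per day (log2, SE, 7 arrays, adjusted p 0.4496) and the leading Ciita set at -0.29 ± 0.09 (adjusted p 0.4496). The Ciita sets differed in sign, 1447075_at standing at -0.23 ± 0.08 and 1421210_at at 0.13 ± 0.10. limma called 0 of 28847 probe sets (0%), with 2678 at an unadjusted p under 0.05, 4 of them members. The dimmer H2-Aa sets stood lower than the leading one, 1452431_s_at at 0.29 ± 0.23 and 1443783_x_at at -0.02 ± 0.13. The outcome for the 2 brighter H2-Aa sets depended on 1 array. Without the diabetogenic day 4 array, 1435290_x_at stood at 0.48 per day with an adjusted p of 0.00169 and 1438858_x_at at 0.55 with 0.00228. These 2 were the only members called in any alternative run. How many of all probe sets were called with an array left out is given in the closing section. Each day is 1 pool per arm, and the later arrays differ in spike control signal, so time and this technical difference cannot be told apart.

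The rest of the pathway was read from lists chosen with earlier results of these data known, and no gene of any list passed in any comparison. Between the arms 8 of 8 endosomal protease and reductase genes were positive with a median of 0.84, beside 52.6% of all probe sets. By day that median was 0.22, 2.23 and 0.07 on days 3, 4 and 8, so it rested on the pair with the dim diabetogenic array. The list was led by the thiol reductase Ifi30 at 1.20 ± 0.70 and cathepsin B (Ctsb) at 1.13 ± 0.96. Among 9 genes of interferon-γ signalling towards Ciita, 5 were positive with a median of 0.13. Jak2, a kinase of the interferon-γ receptor, stood at 1.01 ± 0.42 and the feedback inhibitor Socs1 at 0.76 ± 0.34. Irf1, a direct interferon-γ target chosen for mention after its values were seen, read 18.2, 16.1, 11.0 and 15.6 on the protected arrays, against 42.9, 27.1 and 21.1 on the diabetogenic arrays and 10.8 untreated. Its arms did not overlap, protected being lower, as held in either direction for 4.22% of all probe sets. The difference of -0.74 ± 0.45 had an adjusted p of 0.686. The interferon-γ transcript itself, Ifng, read 27.6, 15.9, 31.8 and 7.62 on the protected arrays, against 43.8, 17.4 and 3.80 on the diabetogenic arrays and 1.92 untreated. Among 7 promoter factors, Nfyc, a subunit of the Y box factor, stood at 0.97 ± 0.42 and Rfxap, of the X box factor, at -0.66 ± 0.36. Of 3 turnover genes, the ubiquitin ligase Marchf1 stood at 0.90 ± 0.36 and Cd83, which protects class II from it, at 0.50 ± 0.36. Among 3 other class II loci, H2-Ea stood at -0.75 ± 0.35 and H2-DMb2 at 0.73 ± 0.37. H2-Ea is not expressed in NOD mice, as said above, and its readings were dim (1.54 to 9.66), so its difference can show little.

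Markers of class II-bearing cells were read on the same arrays. The 13 macrophage markers summed to 259, 1550.2, 1112 and 1117 on protected days 3, 4, 5 and 8, against 181, 183 and 1446 on the diabetogenic arrays and 73.5 untreated, with Csf1r the largest part. Their median difference was 1.48 for protected and 0.82 for diabetogenic minus untreated. Of the 13, 13 and 12 were positive, beside 48.3% and 47.4% of all probe sets. The 8 dendritic cell markers with a tested probe set summed to 49.0 to 176 on the protected arrays, 30.9 to 42.3 on the diabetogenic arrays and 23.7 untreated. The sum of the 5 B cell markers stayed between 16.5 and 26.8 on the protected arrays and 15.3 and 19.6 on the diabetogenic arrays, with 17.3 untreated. Single markers of the macrophage, dendritic cell and B cell lists read as low as 1, the lowest reading in any list. The 5 T cell markers with a tested probe set summed to 30.6 to 77.4 on the protected arrays, 20.6 to 56.8 on the diabetogenic arrays and 14.2 untreated. Macrophage, dendritic cell and T cell sums stood above untreated on every injected array, but sums are weighted to the brightest markers. The median difference of the dendritic cell markers from untreated was 0.81 in the protected and 0.29 in the diabetogenic arm. On the diabetogenic day 4 array alone it was 0.02. In such bulk tissue, more cells of a type and more RNA per cell cannot be told apart, and the part of these cells in the class II values was not tested.

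Genes outside the 10 listed with the profile most like the mean of H2-Aa, H2-Ab1 and H2-Eb1 were, among 1882 candidates and over 8 arrays, Wdfy4 (r = 0.97), Lyz1 (0.97), Lyz2 (0.97), Cd52 (0.96) and Ctsh (0.96), the last also on the endosomal protease list. The correlations are descriptions over the same 8 arrays, the dim diabetogenic day 4 array among them. Lyz1 read 123, 172, 461 and 860.4 on the protected arrays, against 120.3, 16.0 and 891 on the diabetogenic arrays and 19.1 untreated. Lyz2, the macrophage lysozyme, read 29.8, 21.4, 58.3 and 96.5 on the protected arrays, against 28.8, 1.85 and 146 on the diabetogenic arrays and 4.18 untreated. Both were highest on day 8 in each arm and low on diabetogenic day 4. Within the members, H2-Eb1 correlated at 0.97 with H2-Ab1 and with H2-DMa, while H2-Oa correlated at 0.06 to 0.16 with the chains.

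**Figure D5:**
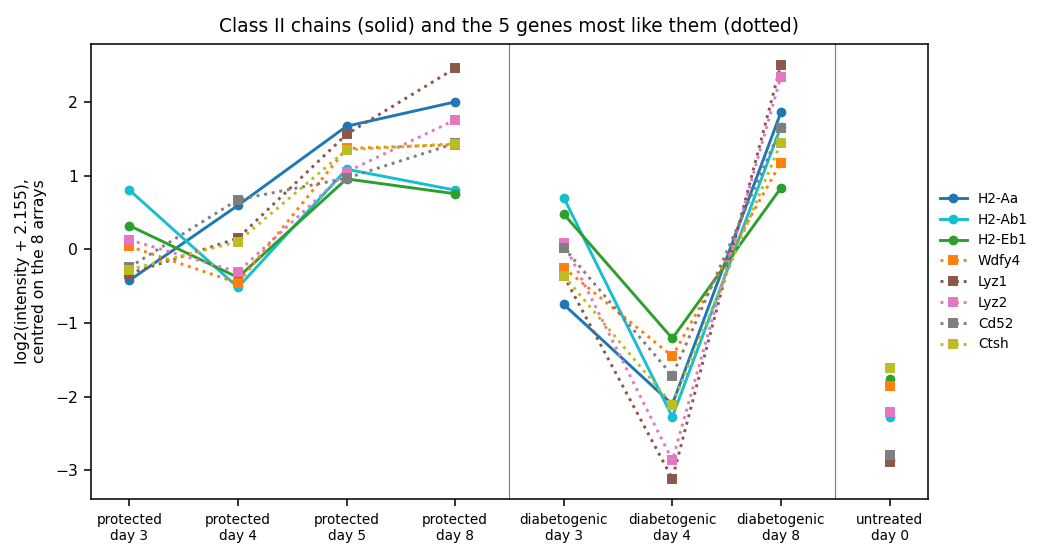
Log2 profiles centred on the 8 arrays for the class II chains H2-Aa, H2-Ab1 and H2-Eb1 (solid) and the 5 most similar other genes (dotted). The diabetogenic day 4 and untreated arrays are low for all 8 profiles.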

How the data were processed

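The 8 arrays were analysed from the authors' deposited table of probe set intensity values for the whole series, on a linear scale. Their summary and scaling method: not given in the sources used here. Per the labels' protocols about 30 ng of pooled RNA was amplified for each array. Precision is limited by how few arrays there are.

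Values were analysed as log2(intensity + 2.155) by linear models with moderated variances (limma 3.58.1, R 4.3.3, trended eBayes). Probe sets with exactly 1 gene symbol (34958; 932 had several and 9211 none) that reached their array's median on at least 2 arrays were tested, and p-values were adjusted over all 28847. The arms were compared on days 3, 4 and 8 with day as a block, and each arm with untreated islets in a fit of all 8 arrays. The matched-day fit has 2 residual degrees of freedom against 24.6 from the trend, so its p-values rest mostly on other probe sets. Single arrays were compared at 2-fold with no test. The fits were tested on simulated data.

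The members and gene lists were chosen with earlier results of these data known. Named genes were all members, the 2 largest arm differences of each pathway list and the 5 most alike genes. Irf1, Ifng, Csf1r, Iapp, Ins2 and Slc2a2, outside that rule, were added after their values were seen. The alternatives were other pseudocounts, scalings and filters, 1 probe set per gene, no day block, and leaving out arrays. Repeat numbers pair no samples.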

Additional observations from a re-analysis of the deposited data

Results flagged for a closer look

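Cathepsin S (Ctss) read 73.11 on the protected day 4 array, while the other protected arrays read 147 (day 3), 144 (day 5) and 146 (day 8). The gap to the nearest of the others was 0.971 of the whole range, above Dixon's 95% critical value for 4 arrays. Of 17 member probe sets examined in the protected arm this was the 1 beyond it, and chance alone puts about 5% of such groups beyond it. The 4 arrays are different days, so a low day and a low library cannot be told apart. The diabetogenic day 4 array was also the lowest of its arm for Ctss, at 14.3.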

How the results depend on the processing

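No member passed the limma test under any alternative except H2-Aa in the change per day without the diabetogenic day 4 array, where 2 of its probe sets passed (0 to 2 members over the arrays left out). Over matched days the count of all probe sets called was 12, against 6 with a pseudocount of 8.62, 1 under quantile normalization, 7 without the filter, 0 without the day block and 39 to 70 with a day pair left out. For protected minus untreated it was 1, against 0 with a pseudocount of 0.539 or 8.62, without the filter and with 1 probe set per gene, 4 under quantile normalization and 0 to 4 with an array left out. For the change per day it was 0, against 22 under cyclic loess and 0 to 25 with an array left out. Under cyclic loess the matched-day estimates were -0.23 for H2-Aa, -0.32 for H2-Ab1, -0.25 for H2-Eb1, -0.13 for Cd74 and -0.31 for H2-DMa, the day 4 median of members was 0.12 and 12 member probe sets stood above untreated on every injected array, against 7. Leaving out a day pair gave -0.38 to 0.93 for H2-Ab1, -0.12 to 0.37 for H2-Eb1, -0.20 to 0.48 for H2-DMa, -0.081 to 0.27 for Ciita and -0.59 to 0.0935 for H2-Ob, 0.23 to 1.51 for H2-Aa and 0.21 to 1.24 for Ctss. Leaving out an array gave changes per day of -0.012 to 0.42 for H2-Ab1, -0.11 to 0.18 for Cd74, -0.0396 to 0.31 for Ctss and 0.38 to 0.70 for H2-Aa. Centring on the 75th percentile moved the median of all probe sets by 0.12 in diabetogenic minus untreated. The causes were not tested. Dim probe sets near the array median, such as Ciita, H2-Oa and H2-Ob, limit what a difference there can show. No paired analysis was possible because the labels give no replicate numbers, beyond the day block above.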
